A study of Mus musculus with 35 samples.

Results

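Txnip, Arrdc3, Arrdc4, Mlxip and Mlx are 5 of the 48709 genes counted in OT-I CTLs, cytotoxic CD8+ T cells of mice whose T cells carry a single transgenic antigen receptor. They were taken by name, with earlier results of these data known, as MondoA (the protein of Mlxip), its partner Mlx and 3 arrestin-domain genes. All 5 passed the filter on low counts that left 13819 genes for the tests. RNA from 35 cultures was sequenced, 5 replicates in each of 7 groups. The 0 h group was untreated cells from before the culture. The other groups were kept for 24 h at pH 7.4, at pH 7 or at pH 6.6, each without IL-2 or with IL-2 at 200 IU/mL. The labels give 1 medium for all groups, a low-glucose DMEM with serum, and all CTLs had been primed through CD3 and CD28 and expanded in IL-2 beforehand. The total count on genes was 16721319 to 34033340 per library.

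MondoA and Mlx pair with each other to bind DNA, and the pair moves to the nucleus when phosphorylated glucose builds up in the cell. Its best known targets are Txnip and Arrdc4. TXNIP binds and blocks thioredoxin and promotes the removal of glucose transporters from the cell surface, and ARRDC4 and ARRDC3, its relatives among the alpha-arrestins, act as adaptors that bring ubiquitin ligases to membrane proteins. In T cells TXNIP is known to be high at rest and to fall when growth signals arrive. Only RNA was measured here, so neither the location nor the activity of the MondoA protein is known from these values.

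The gene models were those of GENCODE M21 (GRCm38). Txnip (ENSMUSG00000038393) lies on the plus strand of chromosome 3 at 96557957 to 96561883, Arrdc3 (ENSMUSG00000074794) on the plus strand of chromosome 13 at 80883384 to 80896042, and Arrdc4 (ENSMUSG00000042659) on the minus strand of chromosome 7 at 68736995 to 68749241. Mlxip (ENSMUSG00000038342) lies on the plus strand of chromosome 5 at 123394798 to 123457932 and Mlx (ENSMUSG00000017801) on the plus strand of chromosome 11 at 101087277 to 101092207. No exon base of the 5 genes is shared with another gene on the same strand. A gene on the opposite strand covers 19.4% of the exon bases of Txnip (Gm15441), 19.3% of those of Mlx (Psmc3ip) and 3.21% of those of Mlxip (Gm15747). The libraries were stranded, but the strand setting of the counting is not given in the sources used here. Gm15441 stayed between 0.0814 and 1.47 CPM (counts per 1000000, with library sizes scaled by the TMM method) in all 35 libraries and Gm15747 at or under 0.287 CPM. Psmc3ip, a meiotic recombination factor, was between 1.43 and 20.5 CPM and fell by 2.30 on the log2 scale at pH 6.6 against pH 7.4 with IL-2 (SE 0.15, edgeR adjusted p = 1.72e-15), the direction in which Mlx moved; its part in the counts of Mlx was not tested.

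Stretches of 3 promoters are shown because they hold a sequence of the kind that the MondoA and Mlx pair binds. They are RefSeq promoter sequences (GRCm38.p6), each of 150 bases, read 5′ to 3′ on the strand of the gene, and positions count from -1 for the base just before the RefSeq start site. The capitals mark, in Txnip, a paired element (2 copies of CACGNG on the same strand with 5 bases between) and, in Arrdc4 and Mlx, an E-box (CACGTG).
Txnip (chr3:96557807-96557956, plus strand, bases -150 to -1): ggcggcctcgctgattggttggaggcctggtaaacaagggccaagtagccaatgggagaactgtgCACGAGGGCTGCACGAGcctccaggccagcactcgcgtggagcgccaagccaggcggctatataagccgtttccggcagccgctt
Arrdc4 (chr7:68749339-68749488, minus strand, bases -250 to -101): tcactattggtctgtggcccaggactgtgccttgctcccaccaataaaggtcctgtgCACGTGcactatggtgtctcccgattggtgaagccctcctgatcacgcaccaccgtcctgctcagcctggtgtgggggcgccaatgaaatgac
Mlx (chr11:101087140-101087289, plus strand, bases -150 to -1): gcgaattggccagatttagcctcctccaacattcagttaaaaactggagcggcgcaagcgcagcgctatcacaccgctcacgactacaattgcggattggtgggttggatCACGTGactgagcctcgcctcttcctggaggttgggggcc

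The search covered the window from 250 bases before to 50 bases after each start site, on both strands, and all 5 genes had at least 1 window. The paired element of Txnip runs from -85 to -69, and it is found in 16 of 32851 windows (0.05%). An E-box was at -193 to -188 in Arrdc4 and at -40 to -35 in Mlx, and 7.15% of all windows hold one. CCAAT, the box bound by NF-Y, is found in 37.4% of all windows. It stood 2 times in the window of Txnip, 6 times in that of Arrdc4 and 2 times each in those of Mlxip and Mlx. It was also in 2 of the 3 windows of Arrdc3, but these 2 windows overlap and share the same box. None of the searched motifs overlapped another in these windows. The windows of Mlxip and Arrdc3 held neither the E-box nor the paired element. A match gives letters in a window, not a site that was shown to be bound.

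**Figure D1:**
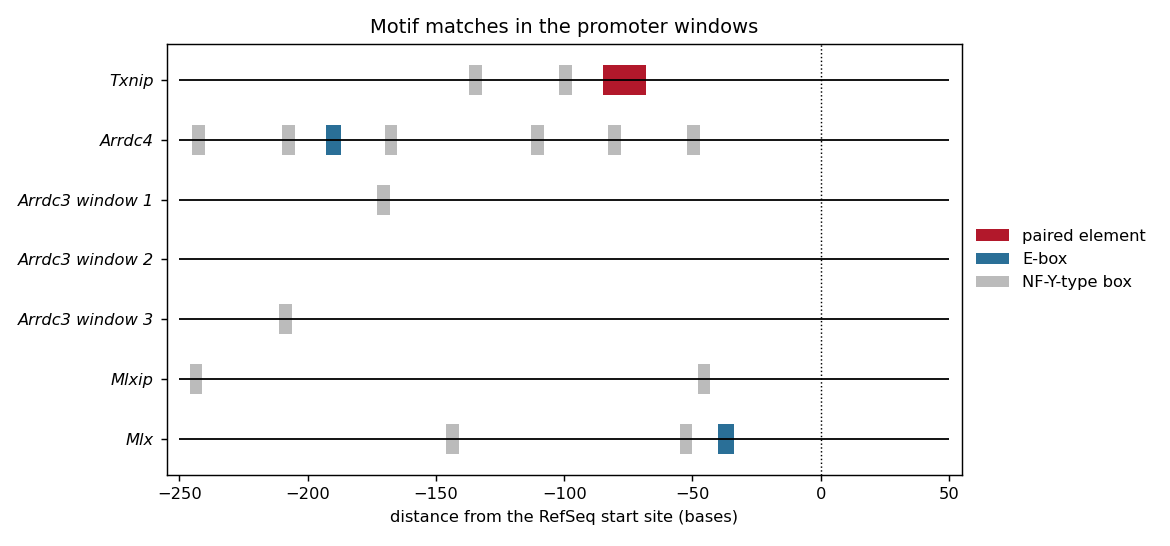
Positions of motif matches in the RefSeq promoter windows of the 5 genes (Arrdc3 has 3), with distance from the start site in bases on the x axis and the start site as a dotted line. Coloured boxes are the paired element, the E-box (CACGTG) and the NF-Y-type box (CCAAT); Txnip alone of the 5 genes holds the paired element, at -85 to -69.

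The RNA of Txnip was the most abundant of the 5, per length, in every group. At 0 h the 5 libraries held 202, 152, 161, 157 and 149.6 CPM (replicates 1 to 5). After 24 h with IL-2 the CPM were 444, 465, 481, 472 and 382 at pH 7.4, then 742, 822, 811, 791 and 652 at pH 7, and 2116, 2511, 2512, 2317 and 2302 at pH 6.6. In this series with IL-2 the 3 groups did not overlap, and every library at lower pH was above every library at higher pH. Without IL-2 the CPM were 2137, 2732, 2540, 2822 and 2735 at pH 7.4, then 2328, 2700.0, 2401, 2791 and 2729 at pH 7, and 2558, 2889, 2916, 2956 and 3043 at pH 6.6. These 3 groups overlapped with one another. Scaled for length, the mean level of Txnip went from 52.6 ± 6.95 RPKM (CPM per 1000 exon bases; SD, n = 5) at 0 h to 920 ± 59.2 RPKM at pH 6.6 without IL-2. By mean RPKM, Txnip ranked 931 of 13787 genes at 0 h, 267 at pH 7.4 with IL-2, 30 at pH 6.6 with IL-2 and between 24 and 25 in the groups without IL-2.

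Arrdc4 was low and high in the same groups as Txnip, at a far lower level, but the order among the high groups differed. Its 0 h libraries held 6, 0, 4, 3 and 3 reads, or a mean of 0.129 ± 0.0864 CPM (SD, n = 5). With IL-2 the CPM were 2.15, 1.04, 1.27, 1.32 and 0.677 at pH 7.4, then 3.62, 2.21, 3.57, 2.87 and 2.12 at pH 7, and 11.3, 8.20, 13.3, 11.2 and 11.6 at pH 6.6. The groups at pH 7.4 and pH 7 touched, since replicate 1 at pH 7.4 lay above replicate 5 at pH 7, while pH 6.6 stood apart from both. Without IL-2 the CPM were 7.399, 8.52, 8.94, 9.10 and 8.22 at pH 7.4, then 8.14, 8.16, 9.58, 10.2 and 7.65 at pH 7, and 12.9, 10.3, 14.2, 13.6 and 13.01 at pH 6.6. Here the lowest library at pH 6.6 was above the highest at pH 7, and pH 7.4 and pH 7 overlapped. In RPKM, which scales for length, the level of Txnip was 281 ± 65.2 times that of Arrdc4 at pH 6.6 with IL-2 and 504 ± 169 times at pH 7.4 with IL-2 (SD, n = 5), with overlapping ranges.

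Arrdc3, the other alpha-arrestin, had groups that mostly overlapped. The CPM were 13.7, 6.81, 7.22, 16.03 and 13.2 at 0 h. With IL-2 they were 19.8, 16.4, 14.6, 13.8 and 13.4 at pH 7.4, then 20.8, 13.8, 12.8, 16.4 and 12.3 at pH 7, and 24.9, 25.99, 25.8, 15.5 and 15.5 at pH 6.6. Replicates 4 and 5 at pH 6.6 thus lay within the range of pH 7.4, and the other 3 above it. Without IL-2 the CPM were 19.8, 18.1, 22.7, 20.99 and 15.8 at pH 7.4, then 24.4, 20.7, 20.8, 21.1 and 16.8 at pH 7, and 23.8, 31.3, 29.6, 22.6 and 25.2 at pH 6.6.

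The 2 DNA-binding partners moved in opposite directions. For Mlxip, the gene of MondoA, the CPM were 149.8, 160, 156, 137 and 79.3 at 0 h. With IL-2 Mlxip held 122, 113, 108, 119 and 102 CPM at pH 7.4, then 147, 154, 145, 133 and 137 at pH 7, and 218, 233, 213, 240 and 210 at pH 6.6, without overlap among the 3 groups. Without IL-2 all 15 libraries lay between 209 and 261 CPM. For Mlx the CPM were 70.5, 70.2, 73.3, 74.8 and 78.0 at 0 h. With IL-2 Mlx held 69.5, 77.8, 78.4, 79.0 and 85.2 CPM at pH 7.4, then 62.8, 68.4, 64.3, 73.4 and 74.7 at pH 7, and 39.7, 43.6, 43.0, 46.0 and 44.3 at pH 6.6. The groups of Mlx at pH 7.4 and pH 7 overlapped and pH 6.6 lay below both. Without IL-2 all 15 libraries of Mlx lay between 35.4 and 46.9 CPM. So Mlxip was high where Mlx was low.

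**Figure D2:**
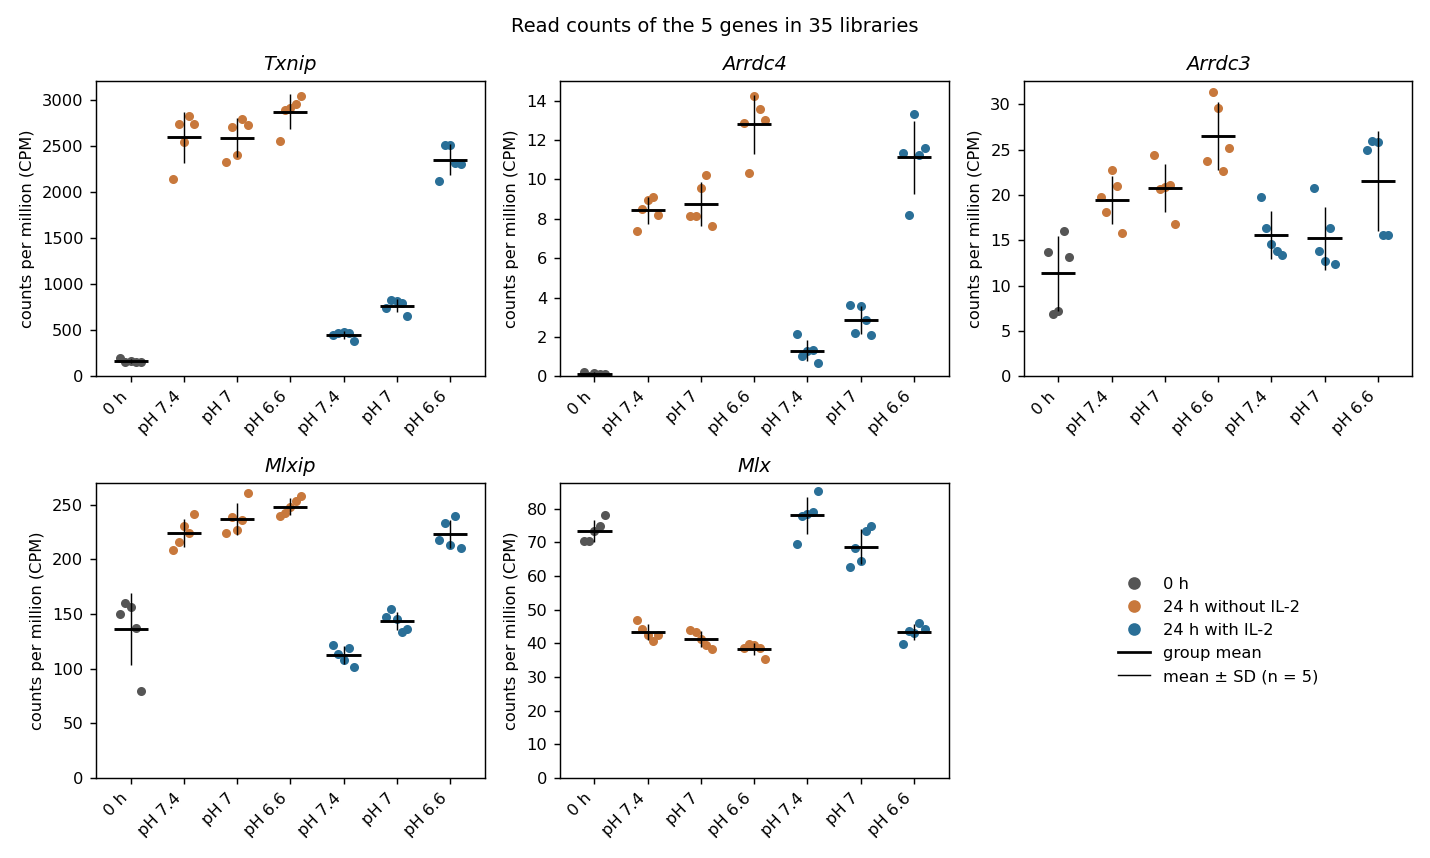
CPM of each gene (y axis, linear from 0) in each library (points) by group (x axis; grey 0 h, orange 24 h without IL-2, blue 24 h with IL-2), with the group mean as a thick bar and its SD as a thin line (n = 5). Txnip and Arrdc4 were low at pH 7.4 and pH 7 with IL-2 and high at pH 6.6 with IL-2 and in the 3 groups without IL-2; Mlx showed the opposite order.

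The first comparison asked what low pH did to CTLs that received IL-2. At pH 6.6 against pH 7.4, Txnip was 5.24-fold higher (log2 fold change 2.39, SE 0.09, edgeR quasi-likelihood adjusted p = 9.49e-21) and Arrdc4 8.58-fold higher (3.10, SE 0.18, adjusted p = 1.18e-16). Mlxip was 1.98-fold higher (0.98, SE 0.11, edgeR adjusted p = 3.99e-10), and Mlx was 1.799-fold lower (log2 fold change -0.85, SE 0.07, adjusted p = 2.35e-13). Arrdc3 rose by 0.47 (SE 0.18, edgeR adjusted p = 0.0178), but the groups of Arrdc3 overlapped, and the call was lost without replicate 3 (0.37, adjusted p = 0.0819) and when genes of at least 1 count in any library were kept (0.45, adjusted p = 0.0611). Each of the 5 genes moved in its direction in 5 of 5 same-numbered pairs, but the share of all genes that did so was not computed. This comparison called 76.3% of all genes tested, 35.4% higher and 40.9% lower, so that all 5 genes being called sets them apart little. By size, the change of Arrdc4 was at percentile 98.7 and that of Txnip at 97.1 of all log2 fold changes, against 84.0 for Mlxip, 70.1 for Arrdc3 and 23.2 for Mlx. The members were chosen with earlier results of these data known, so these percentiles describe them and are no test. The cells were measured in bulk, where fewer cells of a type and less RNA per cell cannot be told apart.

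The step to pH 7 was smaller. Against pH 7.4 with IL-2, Txnip rose 1.70-fold (0.77, SE 0.09, edgeR adjusted p = 3.99e-07) and Arrdc4 2.21-fold (1.14, SE 0.19, adjusted p = 7.77e-05), where 19% of all genes were called. Mlxip rose by 0.35 (SE 0.10, edgeR adjusted p = 0.0182), Mlx fell by 0.18 (SE 0.06, adjusted p = 0.0458) and Arrdc3 had a log2 fold change of -0.04 (SE 0.18, adjusted p = 0.907). The calls of Mlxip and Mlx did not hold throughout: without replicate 2 their adjusted p were 0.108 and 0.143, and without replicate 3 they were 0.0998 and 0.236. Without the block on replicate number Mlx was not called either (-0.18, adjusted p = 0.0548). From pH 7 to pH 6.6 with IL-2, where 72.4% of all genes were called, the log2 fold changes were 1.62 for Txnip (SE 0.09, edgeR adjusted p = 1.11e-16), 1.96 for Arrdc4 (SE 0.16, adjusted p = 1.26e-12), 0.64 for Mlxip (SE 0.10, adjusted p = 2.09e-06), -0.67 for Mlx (SE 0.07, adjusted p = 9.82e-11) and 0.51 for Arrdc3 (SE 0.18, adjusted p = 0.0113). Arrdc3 was higher in 4 of 5 pairs there and was not called without replicate 3 (0.37, adjusted p = 0.0820).

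Without IL-2, Arrdc4 and Arrdc3 were higher at pH 6.6 and Txnip and Mlxip did not pass the threshold. At pH 6.6 against pH 7.4, where 67% of all genes were called, Arrdc4 rose 1.51-fold (0.59, SE 0.15, edgeR adjusted p = 7.32e-04) and Arrdc3 1.37-fold (0.46, SE 0.17, adjusted p = 0.0221), and Mlx fell by 0.18 (SE 0.07, adjusted p = 0.0188). Txnip had a log2 fold change of 0.15 (SE 0.09, edgeR adjusted p = 0.132) and Mlxip one of 0.15 (SE 0.10, adjusted p = 0.213), although both were higher in 5 of 5 pairs. The Txnip difference passed the threshold with RLE normalization (0.19, adjusted p = 0.0493) and with DESeq2 (0.19, adjusted p = 0.0373), and that of Mlx was lost with both (-0.14, adjusted p = 0.0721 and 0.0568). Arrdc3 was not called without replicate 2 (0.33, adjusted p = 0.113) or replicate 5 (0.41, adjusted p = 0.0732), nor Mlx without replicate 3 (-0.17, adjusted p = 0.0735) or replicate 5 (-0.15, adjusted p = 0.0556). The loose filter ended both calls as well, with adjusted p of 0.0669 for Arrdc3 and 0.0695 for Mlx. Between pH 7 and pH 7.4 without IL-2, which called 1.68% of all genes, 0 of the 5 genes passed the threshold; the log2 fold changes lay between -0.07 and 0.09, and 0 of the 5 had an unadjusted p under 0.05. DESeq2 and every other alternative run called 0 of them as well. From pH 7 to pH 6.6, which called 66.6% of all genes, Arrdc4 passed (0.54, SE 0.15, edgeR adjusted p = 0.00164) and the others did not, although Txnip (0.20 in both) and Arrdc3 (0.42 in both) passed with RLE normalization and with DESeq2.

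At pH 7.4, Txnip, Arrdc4 and Mlxip were lower and Mlx was higher with IL-2 than without it. All CTLs had been expanded in IL-2 beforehand, so the groups without IL-2 are cells from which it was withdrawn. Against 0 h, Txnip rose in both groups at pH 7.4, by 1.44 with IL-2 and by 3.98 without it. With against without IL-2 at pH 7.4, where 80.4% of all genes were called (39.3% higher, 41.1% lower), Txnip was 5.78-fold lower (log2 fold change -2.53, SE 0.09, edgeR adjusted p = 4.99e-22) and Arrdc4 6.57-fold lower (-2.72, SE 0.18, adjusted p = 2.10e-15). Mlxip was 1.99-fold lower (-0.996, SE 0.11, edgeR adjusted p = 2.48e-10) and Mlx 1.796-fold higher (0.84, SE 0.07, adjusted p = 1.70e-13). Arrdc3 had a log2 fold change of -0.33 (SE 0.18, edgeR adjusted p = 0.0887). At pH 7, with 77.2% of all genes called, the values were -1.76 for Txnip (SE 0.09, edgeR adjusted p = 4.45e-18), -1.62 for Arrdc4 (SE 0.16, adjusted p = 6.92e-11), -0.73 for Mlxip (SE 0.10, adjusted p = 1.56e-07), 0.73 for Mlx (SE 0.07, adjusted p = 6.96e-12) and -0.45 for Arrdc3 (SE 0.18, adjusted p = 0.0201; 0.0774 without replicate 3).

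At pH 6.6 the difference that IL-2 made was small, and 23.7% of all genes were called. Txnip was 1.22-fold lower with IL-2 (-0.29, SE 0.09, edgeR adjusted p = 0.0144), with no overlap of the groups. The call was lost without replicate 2 (-0.27, adjusted p = 0.0634) or replicate 4 (-0.27, adjusted p = 0.0800). Arrdc4 (-0.20, SE 0.15, edgeR adjusted p = 0.328), Mlxip (-0.16, SE 0.10, adjusted p = 0.284), Arrdc3 (-0.32, SE 0.17, adjusted p = 0.195) and Mlx (0.17, SE 0.07, adjusted p = 0.0529) did not pass the threshold. Mlx passed it with RLE normalization (adjusted p = 0.0417), with DESeq2 (0.0242), with the strict filter (0.0396), with only the groups compared (0.00637) and without replicate 1 (0.0147).

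Whether the effect of pH 6.6 depended on IL-2 was tested as an interaction. It called 67% of all genes. The difference was 2.24 for Txnip (SE 0.13, edgeR adjusted p = 2.19e-16), 2.51 for Arrdc4 (SE 0.23, adjusted p = 2.84e-11), 0.84 for Mlxip (SE 0.15, adjusted p = 8.25e-06) and -0.67 for Mlx (SE 0.09, adjusted p = 1.59e-07), on the log2 scale. Each had its direction in 5 of 5 replicate numbers, but the share of all genes that did so was not computed. For Arrdc3 it was 0.01 (SE 0.25, edgeR adjusted p = 0.969), so no dependence of its pH effect on IL-2 was detectable within that error.

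**Figure D3:**
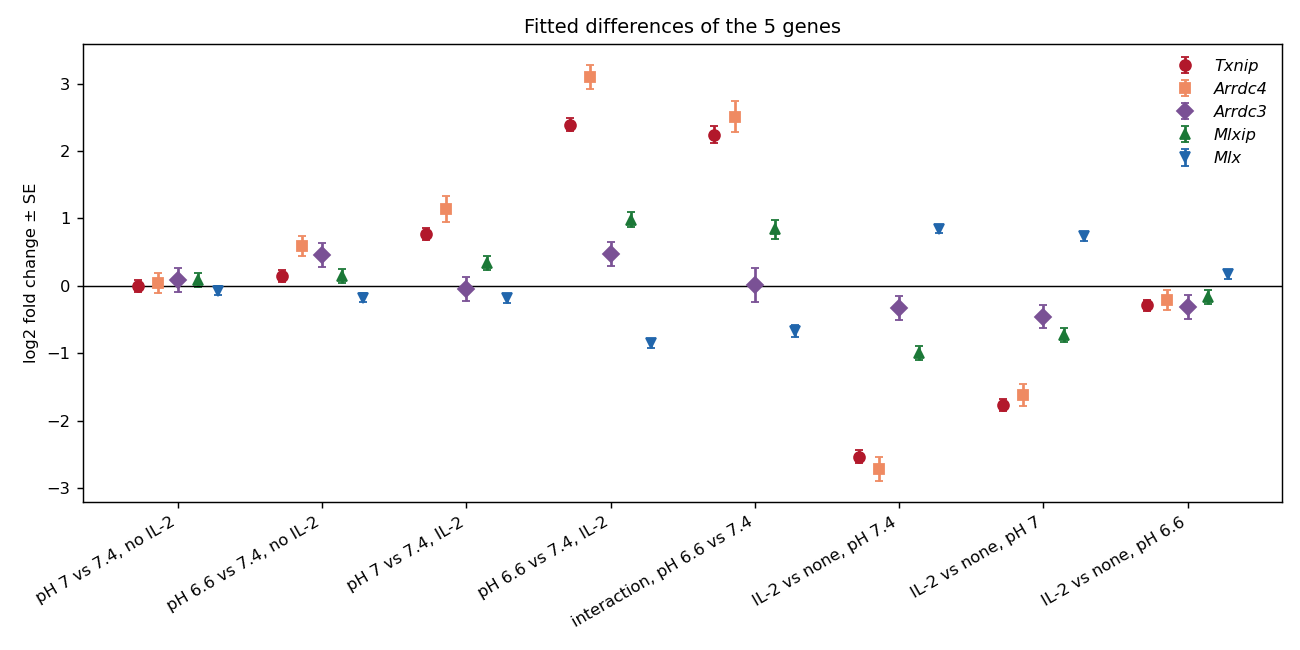
Fitted log2 fold changes (y axis; points, bars are 1 SE) of the 5 genes in 8 comparisons (x axis) of the groups after 24 h. Txnip and Arrdc4 rose most at pH 6.6 with IL-2 and were furthest below 0 with against without IL-2 at pH 7.4. Mlx was on the other side of 0 in both, and Arrdc3 lay near 0 in the interaction.

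The level at pH 6.6 with IL-2 was also set directly beside that at pH 7.4 without IL-2, groups that differ in both pH and IL-2 and between which 64.4% of all genes were called. Of the 5 genes, Arrdc4 passed the threshold (0.39, SE 0.15, edgeR adjusted p = 0.0230), and its call was lost without the block (0.40, adjusted p = 0.0619), without replicate 3 (adjusted p = 0.0954) and without replicate 4 (0.41, adjusted p = 0.0596). The differences were -0.14 for Txnip (SE 0.09, edgeR adjusted p = 0.160), -0.01 for Mlxip (SE 0.10, adjusted p = 0.930), -0.00280 for Mlx (SE 0.07, adjusted p = 0.973) and 0.14 for Arrdc3 (SE 0.18, adjusted p = 0.494). The comparisons of pH with IL-2, of IL-2 at pH 7.4 and of these groups share libraries, so their values are not independent of one another.

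By mean level, the order of the groups for Txnip was pH 6.6, pH 7.4 and pH 7 without IL-2, then pH 6.6, pH 7 and pH 7.4 with IL-2, then 0 h. Neighbours from pH 6.6 with IL-2 downwards differed beyond their spread, and with TMM scaling the groups without IL-2 did not differ from one another beyond theirs. For Arrdc3 no neighbours in the order passed the threshold. Mlx had pH 7.4 with IL-2, 0 h and pH 7 with IL-2 at the top, and the 4 remaining groups below them, with no overlap between the upper and the lower set. Neighbours within each of these sets did not differ beyond their spread.

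Against 0 h, Txnip rose in all 6 groups. The log2 fold change was 1.44 at pH 7.4 with IL-2 (SE 0.09, edgeR adjusted p = 7.56e-15), where 59.9% of all genes were called, 2.21 at pH 7 with IL-2 (54.3% called) and 3.84 at pH 6.6 with IL-2 (68.5% called). Without IL-2 it was 3.98 at pH 7.4 (75.2% called), 3.98 at pH 7 (75.4% called) and 4.13 at pH 6.6 (75.1% called), the last a 17.4-fold rise. Arrdc4 was above 0 h in every library of every group, but its 16 reads over the 5 libraries at 0 h leave the fold poorly fixed, since the fitted value depends on the small count that edgeR adds: the fitted log2 fold changes ran from 3.30 (SE 0.32) at pH 7.4 with IL-2 to 6.603 (SE 0.25) at pH 6.6 without IL-2. In the 3 groups without IL-2 and the acid group with IL-2, Mlxip rose by 0.72 to 0.87, and Mlx fell there by 0.76 to 0.94, all 8 values past the threshold. At pH 7 with IL-2 neither passed, with 0.08 for Mlxip (SE 0.10, edgeR adjusted p = 0.550) and -0.10 for Mlx (SE 0.06, adjusted p = 0.222). In the group at pH 7.4 with IL-2 Mlx had 0.09 (SE 0.06, edgeR adjusted p = 0.252), and Mlxip fell by 0.27 (SE 0.10, adjusted p = 0.0268), a call that was lost without replicate 1 (0.0645), 2 (0.144), 3 (0.239) or 4 (0.0605). Arrdc3 rose at pH 6.6 without IL-2 (1.23, SE 0.18, edgeR adjusted p = 2.96e-07), at pH 6.6 with IL-2 (0.91, adjusted p = 4.59e-05), at pH 7 without IL-2 (0.86, adjusted p = 7.82e-05) and at pH 7.4 without IL-2 (0.77, adjusted p = 2.98e-04). Its rise at pH 7.4 with IL-2 (0.44, edgeR adjusted p = 0.0350) was lost without replicate 1 (0.41, adjusted p = 0.110), 2 (0.27, 0.229) or 3 (0.36, 0.111), and at pH 7 with IL-2 the value was 0.40 (adjusted p = 0.0588). The 0 h cells had not gone through the 24 h culture, so what the culture itself changed cannot be told apart from pH and IL-2 in these comparisons.

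Because Mlxip and Mlx are the partners in 1 complex, their length-scaled levels were set against each other within each library. The RPKM of Mlxip was 0.350 ± 0.0487 times that of Mlx at pH 7.4 with IL-2, 0.504 ± 0.0612 times at pH 7 and 1.24 ± 0.0713 times at pH 6.6 (SD, n = 5), and it was 0.450 ± 0.122 times at 0 h. Without IL-2 the ratio was 1.25 ± 0.122 at pH 7.4, 1.39 ± 0.157 at pH 7 and 1.56 ± 0.115 at pH 6.6. All 15 libraries of 0 h and of the IL-2 groups at pH 7.4 and pH 7 had more Mlx than Mlxip RNA per length, and all 20 others had more Mlxip. The lengths are those of merged exons (8326 bases for Mlxip, 1999 for Mlx), not of the isoforms expressed. Which RNA was in excess is therefore not settled by these ratios. The same was done for Txnip and Txn1, the gene of the cytosolic thioredoxin that TXNIP binds. The RPKM of Txnip was 0.290 ± 0.0457 times that of Txn1 at pH 7.4 with IL-2, 0.618 ± 0.102 times at pH 7 and 4.01 ± 0.512 times at pH 6.6, and it was 0.182 ± 0.0573 times at 0 h. Without IL-2 the ratio was 7.19 ± 0.830 at pH 7.4, 7.67 ± 0.523 at pH 7 and 5.65 ± 0.283 at pH 6.6. The range at pH 6.6 with IL-2, 3.49 to 4.80, lay between those of the other groups with IL-2 and those without IL-2.

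**Figure D4:**
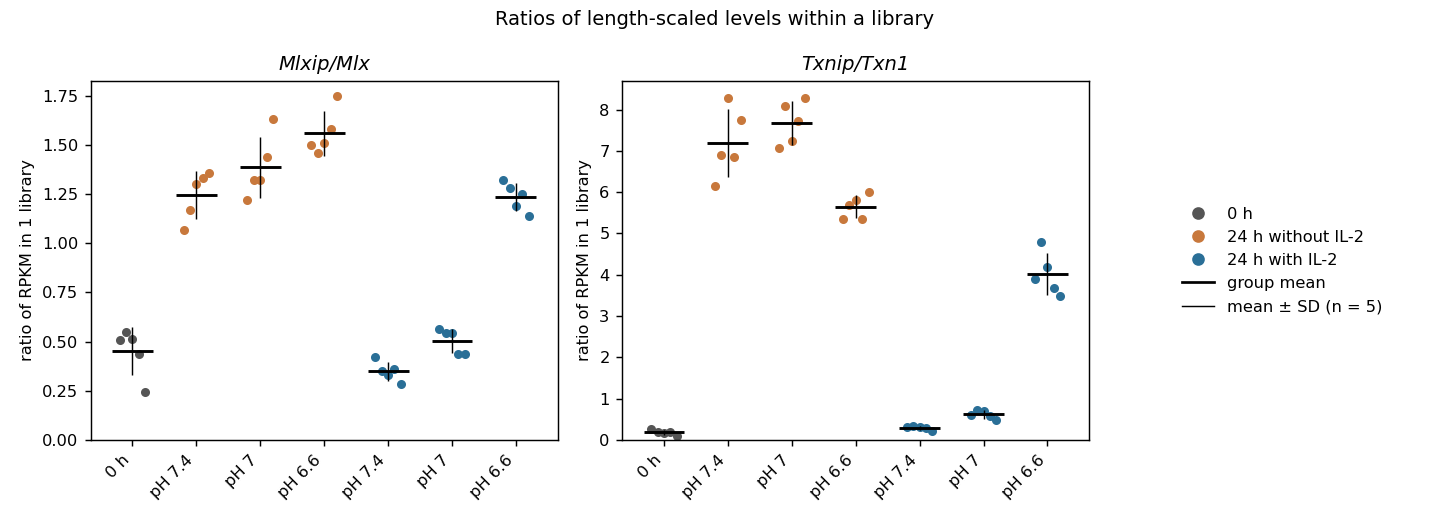
Ratio of RPKM of Mlxip to Mlx and of Txnip to Txn1 (y axes, linear from 0) in each of 35 libraries (points) by group (x axis; grey 0 h, orange 24 h without IL-2, blue 24 h with IL-2), with mean and SD (n = 5). At pH 6.6 with IL-2 the means were 1.24 and 4.01, against 0.350 and 0.290 at pH 7.4 with IL-2.

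Thioredoxin genes mostly fell at low pH with IL-2, where Txnip rose. Of 5 tested genes of the thioredoxin system, 0 rose, 4 fell and 1 did not pass at pH 6.6 against pH 7.4 with IL-2, with a median log2 fold change of -1.08 beside -0.07 over all genes. The largest falls were those of Txnrd3, a thioredoxin reductase (-2.11, SE 0.19, edgeR adjusted p = 9.42e-12), and Txn1 (-1.41, SE 0.11, adjusted p = 1.64e-13). Without IL-2 1 rose, 0 fell and 4 did not pass, with a median of 0.19 beside -0.03 over all genes. Txn1 was the one that rose (0.49). With against without IL-2 at pH 7.4 all 5 were higher, with a median of 1.29. Over all genes, 35.4% were higher and 40.9% lower at pH 6.6 against pH 7.4 with IL-2, and 31.6% and 35.4% without it. With against without IL-2 at pH 7.4 these shares were 39.3% and 41.1%. They apply to the lists below as well.

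The MYC/MAX/MLX network holds the related factors that share the partners Max and Mlx. Of 11 listed, 9 were tested; Mlxipl, the gene of the MondoA relative ChREBP, reached at most 0.492 CPM and Mycl 0.181 CPM. At pH 6.6 against pH 7.4 with IL-2, 4 rose, 4 fell and 1 did not pass, with a median of 0.08, beside 35.4% of all genes higher and 40.9% lower. The largest rises were in Mxd4 (2.59, SE 0.11, edgeR adjusted p = 9.35e-20), a repressor that pairs with Max or Mlx, and Mxi1 (2.14, SE 0.22, adjusted p = 3.27e-10), a repressor that pairs with Max. The largest falls were in Mycn (-2.68, SE 0.11, edgeR adjusted p = 1.88e-20), a MYC factor that promotes growth, and Mxd3 (-1.98, SE 0.19, adjusted p = 3.36e-11). In cells without IL-2, 7 rose, 1 fell and 1 did not pass (median 0.66); Mycn and Mxd3 rose there, by 1.84 and 1.96, and Mxd4 had 0.06. The background for these counts was 31.6% of all genes higher and 35.4% lower. With against without IL-2 at pH 7.4, 4 of the 9 were higher and 5 lower.

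Other genes listed as targets of MondoA or ChREBP did not share one direction with Txnip and Arrdc4. Of 12 listed, 9 were tested, and 2 rose, 5 fell and 2 did not pass at pH 6.6 against pH 7.4 with IL-2, with a median of -0.72. Beside these counts, 35.4% of all genes were higher and 40.9% lower. Klf10, a zinc finger repressor, rose by 3.07 (SE 0.27, edgeR adjusted p = 2.28e-11), and Khk, the fructokinase, by 0.44 (SE 0.14, adjusted p = 0.00453). Of 2 enzymes of fatty acid synthesis, Fasn fell by 1.67 (SE 0.19, edgeR adjusted p = 2.33e-09) and Acaca fell by 1.61 (SE 0.10, adjusted p = 9.53e-16). Without IL-2, 3 rose, 3 fell and 3 did not pass (median 0.09), among them Klf10 with a rise of 1.73. With against without IL-2 at pH 7.4, 4 of the 9 were higher and 3 lower (median 0.18), with a log2 fold change of -1.56 for Klf10.

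Glucose entry and phosphorylation was covered by 10 listed genes, of which 9 were tested. The list also holds Gpi1 and G6pdx, enzymes that act after the phosphorylation. At pH 6.6 against pH 7.4 with IL-2, 2 rose, 5 fell and 2 did not pass (median -0.37), beside 35.4% of all genes higher and 40.9% lower. Hk2, a hexokinase, fell by 3.14 (SE 0.23, edgeR adjusted p = 3.53e-13) and Slc2a1, the transporter GLUT1, fell by 2.37 (SE 0.26, adjusted p = 1.82e-09). Slc2a6, another transporter of the family, rose by 1.70 (SE 0.26, edgeR adjusted p = 5.22e-07) and Hk3 by 0.52 (SE 0.21, adjusted p = 0.0272). Without IL-2, 1 rose, 4 fell and 4 did not pass (median -0.21). With against without IL-2 at pH 7.4, 5 were higher and 3 lower (median 0.40).

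Among the other alpha-arrestins and the HECT ubiquitin ligases they recruit, 9 of 10 listed genes were tested, and Arrdc5 had 0 reads in all 35 libraries. At pH 6.6 against pH 7.4 with IL-2, 6 rose, 2 fell and 1 did not pass, with a median of 0.46 beside -0.07 over all genes. The shares of all genes were 35.4% higher and 40.9% lower. The ligases Smurf1 (0.80, SE 0.09, edgeR adjusted p = 1.18e-09) and Itch (0.65, SE 0.09, adjusted p = 2.02e-07) rose most. Wwp1 (-0.36, SE 0.11, edgeR adjusted p = 0.00289) and Wwp2 (-0.15, SE 0.06, adjusted p = 0.0311) fell. The alpha-arrestins Arrdc2 (0.65, SE 0.09, edgeR adjusted p = 1.11e-07) and Arrdc1 (0.32, SE 0.09, adjusted p = 0.00129) rose as well. Without IL-2, 4 rose, 1 fell and 4 did not pass (median 0.18), with 0.23 for Arrdc2 and -0.24 for Arrdc1. With against without IL-2 at pH 7.4, 2 were higher and 6 lower (median -0.25). With IL-2 at pH 6.6 against pH 7.4, the changes in this list were all smaller than those of Txnip and Arrdc4. Those of Smurf1, Itch, Arrdc2 and Smurf2 (0.59) were larger than the 0.47 of Arrdc3. Without IL-2, that of Itch (0.55) was larger than the 0.15 of Txnip.

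**Figure D5:**
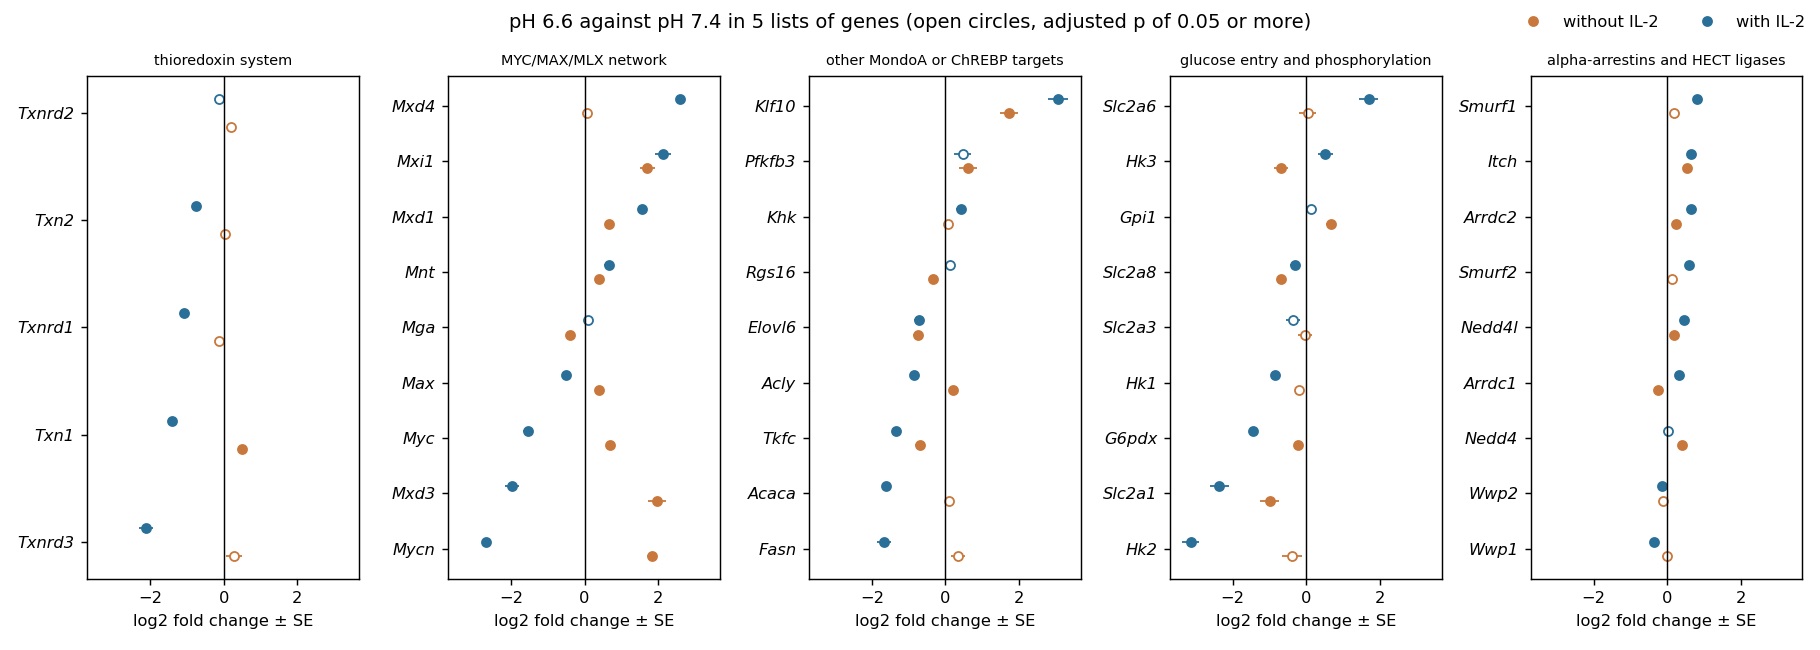
Log2 fold change at pH 6.6 against pH 7.4 (x axis; points, bars are 1 SE) of each tested gene (y axis) in 5 lists, with IL-2 in blue and without IL-2 in orange; open circles did not pass the threshold. In the thioredoxin system 4 of 5 genes fell with IL-2 and 0 fell without it, beside 40.9% and 35.4% of all genes. In the other lists genes moved in both directions.

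The paired element of Txnip is found in the promoter windows of 15 genes, a set formed after the values were seen. Of these, 11 were tested, and at pH 6.6 against pH 7.4 with IL-2 3 rose (Txnip, Fnip1 by 1.38 and Nfkb2 by 0.64), 5 fell and 3 did not pass, with a median of -0.40. Over all genes, 35.4% were higher and 40.9% lower. Of the members, only Txnip had an exact match in the windows searched. The part of the element in any of these changes was not tested.

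The genes most like each member over the 35 libraries were found by Pearson's r of log2 CPM among the 9007 genes whose log2 CPM averaged 3 or more. For Arrdc4 the nearest was Txnip (r = 0.974), followed by Lpxn (0.939) and Cep162 (0.932). For Txnip they were Lpxn (0.964), Hp1bp3 (0.958) and Numa1 (0.958), Arrdc4 itself having a mean under the limit. Those of Mlxip were Mau2 (0.980), Kansl1 (0.973) and Unkl (0.973), those of Mlx were Tars (0.977), Fam136a (0.976) and Lta (0.976), and those of Arrdc3 were Prmt9 (0.898), Dapp1 (0.876) and Trmt1l (0.874). The libraries fall into groups that share a condition, so these values mostly describe the group means. With the group means removed, r was 0.409 between Txnip and Arrdc4, -0.417 between Txnip and Mlx and -0.443 between Mlxip and Mlx. It was 0.108 between Txnip and Arrdc3, 0.00819 between Arrdc4 and Mlxip and -0.3 between Arrdc3 and Mlxip. With the group means left in, the value for Arrdc3 and Mlxip was 0.571. All are over the same libraries, which share replicate numbers and depth.

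The labelled cell type was checked against markers of CD8 T cells, and Cd3d, Cd3e, Cd8a, Cd8b1 and Trac were at 211 CPM or more in every library. The sum over the 6 CD8 markers was 8899 to 11340 CPM at pH 7.4 with IL-2 and 3084 to 4159 CPM at pH 6.6 with IL-2, and the granzyme gene Gzmb made up most of that gap (means of 7796 and 845 CPM). Markers of B cells and of erythroid cells summed to under 1 CPM in every library, and those of CD4 T cells to at most 5.50 CPM. The 5 myeloid markers were higher in most groups where Txnip was high: they summed to 12.1 to 14.8 CPM at 0 h, 9.94 to 12.9 CPM at pH 7.4 with IL-2, 16.1 to 21.7 at pH 7 with IL-2, 25.2 to 41.3 at pH 6.6 with IL-2 and 24.2 to 42.8 without IL-2. The lowest Txnip, at 0 h, thus did not go with the lowest sum. That sum came from Cd68 and Itgax, while the defining macrophage genes Csf1r, Lyz2 and Adgre1 were each at or under 0.286 CPM in all 35 libraries. The 2 NK cell markers summed to 43.0 to 45.8 CPM at pH 7.4 with IL-2 and 19.4 to 33.2 CPM at pH 6.6 with IL-2, through Klrb1c, with Ncr1 at or under 0.0694 CPM.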

How the data were processed

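RNA was measured in 35 libraries of mouse OT-I CTLs, in 7 groups of 5. The authors purified live cells over Ficoll, prepared mRNA libraries that keep the strand, sequenced them as single reads and deposited 1 table of raw read counts per gene for each library. The submitters' processing notes name cutadapt 1.8, STAR 2.5.2b, HTSeq 0.6.1 and GRCm38; the annotation release, strand setting and read length are not given in the sources used here. The 5 closing rows that name no gene were left out. Reads aligned to several places were a median of 37.1% of the table, those outside genes 7.42% and ambiguous ones 0.922%. The share outside genes differed by group. It was 2.58 to 5.68% at 0 h and 6.47 to 11.1% without IL-2. With IL-2 it was 3.91 to 5.18% at pH 7.4, 5.05 to 5.95% at pH 7 and 7.335 to 8.83% at pH 6.6. Its part in the differences between groups was not tested. Total gene counts had a median of 24730020. The authors' statistics were paired.

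Symbols and exon lengths came from GENCODE M21 (48349 of 48709 identifiers). In R 4.3.3, edgeR 4.0.16 kept 13819 genes (filterByExpr, minimum count 10), normalized by TMM and fitted 1 robust quasi-likelihood model with group and replicate number as terms, over all libraries. Contrasts were tested over all genes with Benjamini-Hochberg adjustment at 0.05. The biological coefficient of variation was 0.120. The labels do not say what a replicate number shares, so pairing was checked. Over the IL-2 groups at pH 6.6 and at pH 7.4, same-numbered libraries deviated together in 5 of 5 pairs (r 0.198 to 0.416). The median was -0.0743 for different numbers, partly by construction, since deviations were taken from each group's mean. Over all groups, 95 of 105 same-numbered pairs had r over 0.1. Nothing in the labels states separate animals, so p-values measure the spread between these cultures. No 2 of the 70 pairs of libraries within groups agreed within sampling noise. The model was first run on simulated counts in which few genes changed, in a single group, with no replicate effect. These data differ from that setting, so the run does not measure the error rate here. RPKM divides TMM-scaled CPM by exon length.

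The members and gene lists were chosen with earlier results of these data known. In each list the text names the 2 largest rises and 2 largest falls past the threshold at pH 6.6 against pH 7.4 with IL-2. These were taken among genes whose log2 CPM averaged 1 or more. The markers are given as sums. Fnip1, Nfkb2, Arrdc1, Arrdc2, Smurf2 and the opposite-strand genes were named after their values were seen. The alternatives were DESeq2 1.42.0 on the same design, RLE normalization, a loose filter (1 count or more in any library), a strict filter (10 counts or more in every library), a fit to only the groups compared, a fit with no replicate block, and leaving out each replicate. Mean CPM were also computed with RLE and with the library total alone.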

Additional observations from a re-analysis of the deposited data

Results flagged for a closer look

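Of the 35 sets of 5 libraries (5 genes in 7 groups), 2 held a library far from the others by Dixon's test, and chance flags about 1 set in 20. At 0 h, Txnip was 202.2 CPM in replicate 1 against 161 CPM in the next library. Mlxip at 0 h was 79.26 CPM in replicate 5 against 137 CPM in the next library and 160 CPM in the highest. That replicate 5 library also had the highest share of reads aligned to several places (48.3%) of all 35 libraries. Its share of reads outside genes (2.58%) was the lowest. All comparisons against 0 h in the main fit include it.

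The effect of pH 6.6 against pH 7.4 differed with and without IL-2 by the interaction test for Txnip (2.241 on the log2 scale), Arrdc4 (2.51), Mlxip (0.8377) and Mlx (-0.6701), with the edgeR adjusted p-values given with the comparison.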

How the results depend on the processing

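At pH 6.6 against pH 7.4 with IL-2 and in the interaction, Txnip (2.34 to 2.49 and 2.19 to 2.40 on the log2 scale), Arrdc4 (2.92 to 3.41 and 2.34 to 2.90), Mlxip (0.97 to 1.09 and 0.80 to 0.99) and Mlx (-0.87 to -0.78 and -0.68 to -0.57) kept their direction and their side of the threshold under every alternative run. Of 918 recomputed changes of the 5 genes, 858 kept their side of the threshold, 37 lost and 23 gained a call; the sign changed in 17, and in 0 of these was the value past the threshold before or after. The strict filter removed Arrdc4, so it has no value there. The causes were not tested, apart from fewer libraries or another set of genes by construction.

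RLE normalization gave Txnip 0.19 at pH 6.6 against pH 7.4 and 0.20 against pH 7 without IL-2, Mlx -0.14 and Arrdc3 0.42 in the same comparisons, and Mlx 0.19 for IL-2 at pH 6.6. DESeq2 gave 0.19, 0.20, -0.14, 0.42 and 0.19 for these and 0.41 for Arrdc3 at pH 7 with IL-2 against 0 h. The loose filter ended the calls of Arrdc3 at pH 6.6 against pH 7.4 with IL-2 (0.45) and without it (0.45), for IL-2 at pH 7 (-0.43) and at pH 7.4 with IL-2 against 0 h (0.47), of Mlx at pH 7 with IL-2 (-0.18) and pH 6.6 without IL-2 (-0.19), and of Mlxip at pH 7.4 with IL-2 against 0 h (-0.25). The strict filter called Mlx for IL-2 at pH 6.6 (0.18).

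Without the replicate block, Mlx at pH 7 against pH 7.4 with IL-2 (-0.18) and Arrdc4 at pH 6.6 with IL-2 against pH 7.4 without IL-2 (0.40) were not called, and it changed no other call of the 5 genes. With only the groups compared, Txnip (0.15) and Arrdc3 (0.35) were called at pH 6.6 against pH 7 without IL-2, Arrdc3 for IL-2 at pH 7.4 (-0.33) and at pH 6.6 (-0.28) and at pH 7 with IL-2 against 0 h (0.46), and Mlx for IL-2 at pH 6.6 (0.21), while Arrdc3 (0.50) and Mlxip (-0.26) at pH 7.4 with IL-2 against 0 h were not.

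Leaving out each replicate changed calls in these ranges. Arrdc3 ran from 0.37 to 0.57 (pH 6.6 against 7.4 with IL-2; lost without 3), 0.37 to 0.65 (pH 6.6 against 7 with IL-2; lost without 3), 0.33 to 0.54 (pH 6.6 against 7.4 without IL-2; lost without 2 or 5), 0.28 to 0.43 (pH 6.6 against 7 without IL-2; gained without 4), -0.47 to -0.22 (IL-2 at pH 7.4; gained without 1 or 2), -0.59 to -0.37 (IL-2 at pH 7; lost without 3), 0.27 to 0.64 (pH 7.4 with IL-2 against 0 h; lost without 1, 2 or 3) and 0.27 to 0.56 (pH 7 with IL-2 against 0 h; gained without 4 or 5). Mlxip ran from 0.31 to 0.39 (pH 7 against 7.4 with IL-2; lost without 2 or 3), 0.10 to 0.18 (pH 6.6 against 7.4 without IL-2; gained without 5) and -0.37 to -0.18 (pH 7.4 with IL-2 against 0 h; lost without 1, 2, 3 or 4). Mlx ran from -0.20 to -0.16 (pH 7 against 7.4 with IL-2; lost without 2, 3, 4 or 5), -0.21 to -0.15 (pH 6.6 against 7.4 without IL-2; lost without 3 or 5) and 0.14 to 0.24 (IL-2 at pH 6.6; gained without 1). Txnip ran from -0.31 to -0.26 (IL-2 at pH 6.6; lost without 2 or 4) and Arrdc4 from 0.34 to 0.51 (pH 6.6 with IL-2 against pH 7.4 without; lost without 3 or 4).

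Counts of genes called moved by over 1.5 times in 3 comparisons. At pH 7 against pH 7.4 with IL-2 they went from 2623 to 1660 without the block, 1374 without replicate 2, 1283 without replicate 3 and 4388 with only the groups compared; without IL-2 from 232 to 56 without the block, 35, 90, 141 and 154 without replicates 2 to 5 and 942 with only the groups compared; for IL-2 at pH 6.6 from 3278 to 2119 without replicate 4 and 5369 with only the groups compared. With CPM by library total alone, 6 mean levels without IL-2 moved by more than 1 SD: Mlxip to 237.4 (pH 7.4), 253.3 (pH 7) and 236.6 (pH 6.6), where pH 6.6 was no longer the highest, and Mlx to 45.94, 44.1 and 36.53. Depth limits Arrdc4 at 0 h, with 16 reads over 5 libraries.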
